A study of Mus musculus with 6 samples.

Results

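The 10 genes described here encode integrin alpha subunits that bind extracellular matrix. They are Itga1, Itga2 and Itga11 of the collagen receptors, Itga3, Itga6 and Itga7 of the laminin receptors, Itga5, Itga8 and Itgav of the receptors for the RGD tripeptide, and Itga4, which binds fibronectin at the alternatively spliced CS1 site and the cell surface protein VCAM1. They were found by symbol among the 37309 genes of the deposited table, each symbol on 1 row. RNA was sequenced from cultured vascular smooth muscle cells. They came from the descending aorta of Immorto mice, whose conditional simian virus large T antigen lets cells be kept in culture. One group of 3 libraries came from cells kept for 3 days with DAPT at 50 uM, and the other group of 3 from cells kept for 3 days with DMSO vehicle. DAPT blocks gamma-secretase, a membrane protease that cuts Notch receptors, and so frees their intracellular part, as well as many other membrane proteins. The labels do not say whether the 3 libraries of a group came from separate cultures, so p-values measure the spread between these libraries, which may be technical.

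Integrins are heterodimers of an alpha and a beta subunit, and the alpha subunit largely sets which matrix protein is bound. Itga1, Itga2 and Itga11 carry an inserted I domain that grips collagen, while the other 7 have none. Alpha1, alpha7 and alpha8 are known from contractile smooth muscle, and alpha5 and alphaV from cells that spread on fibronectin and vitronectin. Alpha3 and alpha6 anchor many cell types to laminin, the main glycoprotein of basement membranes.

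Recovered totals were 12159930 to 13488512 reads in DAPT libraries and 10702548 to 14503665 reads in vehicle libraries. The values below are normalised read counts, that is, reads divided by the authors' size factor for the library, and 1 read was worth 0.885 to 1.20 of them. DAPT and vehicle libraries lay apart along the leading principal component (42.3% of variance). Of 6 Notch target genes 2 were tested and 1 fell, Hes1, which stood at 211 ± 11.5 under DAPT and 326 ± 5.88 in vehicle (SD, n = 3 each). Nrarp did not pass, at 44.5 ± 2.83 under DAPT and 44.6 ± 8.57 in vehicle, Hey1, Hey2 and Heyl lay under the filter on low values, and Hes5 was at 0. Of 13 smooth muscle contractile genes 12 were tested, 5 fell and 0 rose, where 8.91% of all tested genes were called lower. The list summed to 15341 to 15792 normalised counts in DAPT libraries and 17111 to 18027 in vehicle libraries. Its members were uneven in level, and the low ones named here were picked after their values were seen. Myh11, smooth muscle myosin, stood at 47.1 ± 3.99 under DAPT and 49.2 ± 4.28 in vehicle. Myocd, the cofactor that drives the contractile genes, stood at 0.330 ± 0.572 under DAPT and 0.400 ± 0.693 in vehicle.

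Under DAPT the collagen receptor genes Itga1 and Itga11 and the laminin receptor genes Itga3 and Itga7 fell, and Itga6 and Itga8 rose. The call of Itga8 held in 8 of 15 alternative tests and that of Itga6 in all 17. Itga11 fell most, 2.38-fold. The 2 most abundant genes, Itga5 and Itgav, did not pass the test and stood within a few percent of vehicle. All 10 genes were tested with limma on log2 of the normalised count plus 1, and 6 had an adjusted p below 0.05 (Benjamini-Hochberg over 14906 genes), where 18.1% of all tested genes did. The 4 that fell compare with 8.91% of tested genes called lower, and the 2 that rose with 9.22% called higher. The median absolute log2 change was 0.44 over the 10 genes and 0.10 over all tested genes. Every one of the 10 reached the filter of 10 normalised counts in all 6 libraries.

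**Figure D1:**
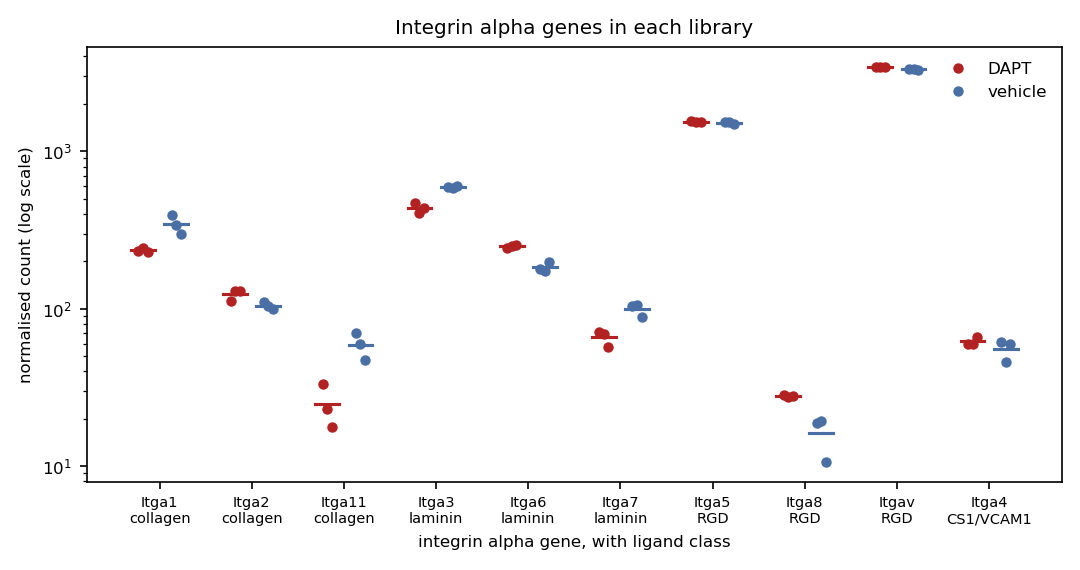
Normalised count (log scale) of each integrin alpha gene in each library, DAPT in red left of vehicle in blue. Points are libraries and bars are group means. Itga1, Itga3, Itga7 and Itga11 lie lower under DAPT and Itga6 and Itga8 higher, without overlap between groups.

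The freed part of Notch acts on transcription with the DNA-binding protein RBPJ, and the bases just before the transcription start were searched for its core letters. RefSeq promoters (GRCm38.p6, not the mm9 build of the counts) were matched for 8 of the 10 genes, in 9 windows of 250 bases, since Itga3 has 2 starts; Itga6 and Itga7 were not. The 4 genes below changed under DAPT, and Itga5 is shown as an abundant gene that did not pass the test. Each is written 5′ to 3′ on the gene's strand and ends at the base before the start, with GC boxes (GGGCGG on either strand) in capitals.
Itga1, chr13:115101965-115102214, minus strand: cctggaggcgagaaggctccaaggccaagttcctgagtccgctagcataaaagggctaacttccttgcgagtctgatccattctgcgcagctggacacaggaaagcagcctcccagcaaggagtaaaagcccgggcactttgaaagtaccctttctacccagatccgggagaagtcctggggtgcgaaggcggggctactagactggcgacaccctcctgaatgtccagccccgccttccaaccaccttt
Itga11, chr9:62677605-62677854, plus strand: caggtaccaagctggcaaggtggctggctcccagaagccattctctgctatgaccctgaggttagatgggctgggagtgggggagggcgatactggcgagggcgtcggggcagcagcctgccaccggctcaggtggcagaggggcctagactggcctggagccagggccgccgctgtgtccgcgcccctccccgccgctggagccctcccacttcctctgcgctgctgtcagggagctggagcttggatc
Itga3, chr11:95076715-95076964, minus strand: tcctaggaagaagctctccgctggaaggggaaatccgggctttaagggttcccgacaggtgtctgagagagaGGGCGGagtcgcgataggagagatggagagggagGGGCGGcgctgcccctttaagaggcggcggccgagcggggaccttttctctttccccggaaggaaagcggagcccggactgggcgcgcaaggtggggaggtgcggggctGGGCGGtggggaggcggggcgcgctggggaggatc
Itga8, chr2:12301945-12302194, minus strand: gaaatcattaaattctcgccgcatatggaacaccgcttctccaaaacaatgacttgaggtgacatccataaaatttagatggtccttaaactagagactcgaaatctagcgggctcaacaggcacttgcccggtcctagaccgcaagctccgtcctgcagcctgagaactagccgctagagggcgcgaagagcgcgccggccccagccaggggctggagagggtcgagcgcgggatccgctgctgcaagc
Itga5, chr15:103366792-103367041, minus strand: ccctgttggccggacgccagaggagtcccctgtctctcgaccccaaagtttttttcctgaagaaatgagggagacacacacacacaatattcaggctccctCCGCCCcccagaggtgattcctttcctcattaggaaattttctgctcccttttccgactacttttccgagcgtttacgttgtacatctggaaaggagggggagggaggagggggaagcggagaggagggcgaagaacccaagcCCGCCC

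The RBPJ core TGGGAA, read on both strands, was in 0 of the 9 windows, against 21.6% of 32851 promoter windows of the same length. The core of the YAP partner TEAD, GGAATG, and the CArG box of serum response factor were also in 0 of the 9, against 12.6% and 1.47% of all windows; TGGGAA and GGAATG can overlap each other. GC boxes stood at 3 places before the first Itga3 start, 1 before its second start, 2 before Itga5 and 1 before Itga4, and 32.7% of all windows held one. The GC content was 57.6% for Itga1, 68.4% for Itga11, 67.6% and 50.8% for the first and the second start of Itga3, and 56.4% for Itga8, where the median of all windows was 52.4%. These are matches of letters in short windows and say nothing of sites elsewhere.

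Among the collagen receptors, Itga11 pairs with beta1 and is best known from fibroblasts, where it binds fibrillar collagen. Itga11 (ENSMUSG00000032243, chromosome 9) stood at 33.2, 23.1 and 17.8 normalised counts in DAPT replicates 1 to 3, against 70.5, 60.1 and 46.9 in vehicle replicates 1 to 3. The 3 DAPT values lay below all 3 vehicle values, in both groups over a wide range, and they rest on 35 and 22 reads in DAPT replicates 1 and 2 and on 50 to 75 reads in vehicle. The log2 change was -1.25 (SE 0.215, 95% interval -1.69 to -0.81, limma adjusted p = 0.000143).

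Itga1, the collagen receptor chain of mature smooth muscle, which favours the network collagen of basement membranes, lay on chromosome 13 (ENSMUSG00000042284). It stood at 233, 243 and 228 in DAPT replicates 1 to 3, against 392, 342 and 298 in vehicle replicates 1 to 3. The DAPT libraries were close together and below every vehicle library, and the vehicle libraries spread more. The log2 change was -0.54 (SE 0.0829, 95% interval -0.71 to -0.37, limma adjusted p = 3.19e-05). In GENCODE M21 the span of the gene Pelo, which encodes a ribosome rescue factor, overlaps that of Itga1 on the same strand. Whether this affected the counting of reads was not tested. Pelo stood at 330 ± 26.7 under DAPT and 396 ± 31.3 in vehicle (log2 change -0.26, limma adjusted p = 0.0117); its part in the fall of Itga1 was not tested.

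Itga2, the collagen chain known from platelets and epithelia, lies next to Itga1 on chromosome 13 (ENSMUSG00000015533) but went the other way in value. It stood at 112, 129 and 130 in DAPT replicates 1 to 3, against 110, 104 and 99.2 in vehicle replicates 1 to 3. The lowest DAPT library was only just above the highest vehicle library. The log2 change of 0.24 did not pass (95% interval 0.01 to 0.46, limma adjusted p = 0.144).

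Summed per kilobase of the deposited gene length, the 3 collagen receptor genes gave 63.4 ± 1.86 normalised counts per kilobase under DAPT and 79.2 ± 9.41 in vehicle. Within that sum Itga2 held 42.8%, 46.9% and 49.1% in DAPT replicates 1 to 3, against 29.5%, 31.4% and 33.7% in vehicle replicates 1 to 3. Itga1 held 46.3% ± 0.781 under DAPT and 54.3% ± 0.953 in vehicle. Itga11 held 7.48% ± 2.47 under DAPT and 14.2% ± 1.22 in vehicle. Shares of a sum move together, so a smaller share of 1 gene raises those of the others. With the exon lengths of the GENCODE M21 annotation in place of the deposited ones, the class sum was 34.8 ± 0.908 under DAPT and 44.7 ± 5.58 in vehicle. Of that sum Itga11 held 13.8% ± 4.33 under DAPT and 25.6% ± 2.03 in vehicle. Itga1 held 36.3% ± 0.260 under DAPT and 41.4% ± 0.506 in vehicle, and Itga2 49.9% ± 4.29 under DAPT and 33.0% ± 2.45 in vehicle.

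Among the laminin receptors, Itga3 is the chain that binds laminins with an alpha3 or alpha5 chain, and it was the most abundant of its class. Itga3 (ENSMUSG00000001507, chromosome 11) stood at 470, 405 and 436 in DAPT replicates 1 to 3, against 596, 586 and 599 in vehicle replicates 1 to 3. The vehicle libraries were nearly alike and the highest DAPT library was well below them. The log2 change was -0.44 (SE 0.0583, 95% interval -0.56 to -0.32, limma adjusted p = 3.92e-06).

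Itga7, the laminin receptor chain of muscle, stood at 71.1, 69.4 and 57.4 in DAPT replicates 1 to 3, against 103, 106 and 88.5 in vehicle replicates 1 to 3 (ENSMUSG00000025348, chromosome 10). The groups did not overlap. The log2 change was -0.58 (SE 0.133, 95% interval -0.86 to -0.31, limma adjusted p = 0.00264). DESeq2 on the 5 libraries with recovered reads gave Itga7 an adjusted p of 0.183.

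Itga6 is the laminin receptor chain of many epithelial and progenitor cells and can pair with beta1 or beta4. Itga6 (ENSMUSG00000027111, chromosome 2) stood at 244, 248 and 253 in DAPT replicates 1 to 3, against 178, 173 and 197 in vehicle replicates 1 to 3. Each DAPT library was above each vehicle library, and the DAPT libraries lay within a narrow range. The log2 change was 0.44 (SE 0.0809, 95% interval 0.28 to 0.61, limma adjusted p = 0.000291), close in size to that of Itga3 and opposite in sign. Gene counts do not separate the A and B tail variants that Itga3, Itga6 and Itga7 are known to have.

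The laminin receptor genes summed to 90.4 ± 4.44 normalised counts per kilobase under DAPT and 113 ± 0.849 in vehicle. Itga6 held 20.2%, 22.5% and 22.5% of that sum in DAPT replicates 1 to 3, against 12.3%, 12.1% and 13.9% in vehicle replicates 1 to 3. Itga3 held 61.1% ± 2.01 under DAPT and 66.6% ± 0.882 in vehicle, and Itga7 17.1% ± 1.76 under DAPT and 20.6% ± 1.85 in vehicle. With GENCODE lengths the Itga7 share was 7.27% ± 0.834 under DAPT and 8.99% ± 0.918 in vehicle. The per-kilobase level of Itga3 was 2.82 ± 0.238 times that of Itga6 under DAPT and 5.22 ± 0.316 times in vehicle. The pair was chosen after the values were seen, and the ratio was not tested.

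**Figure D2:**
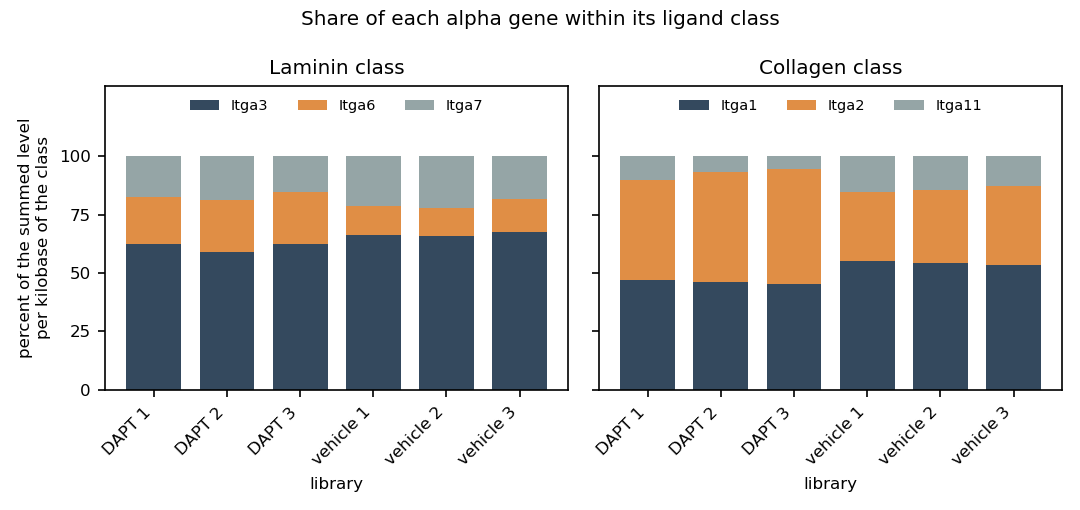
Percent of the summed level per kilobase of deposited length held by each gene of the laminin class (left) and the collagen class (right), 1 bar per library, DAPT libraries left of vehicle libraries. The Itga6 share is 20.2% to 22.5% under DAPT and 12.1% to 13.9% in vehicle, and the Itga2 share 42.8% to 49.1% under DAPT and 29.5% to 33.7% in vehicle.

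Among the RGD receptors, Itga5 pairs with beta1 as the classical fibronectin receptor. Itga5 (ENSMUSG00000000555, chromosome 15) stood at 1564, 1536 and 1534 in DAPT replicates 1 to 3, against 1528, 1527 and 1491 in vehicle replicates 1 to 3. Every DAPT value lay above every vehicle value, but by little: the log2 change was 0.03 (95% interval -0.05 to 0.11, limma adjusted p = 0.684).

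Itgav, the chain of the vitronectin receptors, which also bind fibronectin and latent TGF-beta, stood at 3410, 3439 and 3442 in DAPT replicates 1 to 3, against 3351, 3317 and 3306 in vehicle replicates 1 to 3 (ENSMUSG00000027087, chromosome 2). The DAPT libraries were again just above vehicle, with a log2 change of 0.05 (95% interval -0.02 to 0.11, limma adjusted p = 0.386). Of the 3142 tested genes with a mean from 1000 to 5000 normalised counts, the range that holds Itga5 and Itgav, 32.8% were called. The groups did not overlap in 9 of the 10 alpha genes, Itga4 being the other, where 33.3% of all tested genes showed no overlap.

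Itga8, the nephronectin and fibronectin receptor chain known from smooth muscle and mesangial cells, was low. Itga8 (ENSMUSG00000026768, chromosome 2) stood at 28.4, 27.4 and 27.7 in DAPT replicates 1 to 3, against 18.8, 19.2 and 10.6 in vehicle replicates 1 to 3. The DAPT libraries were nearly alike and above vehicle, of which replicate 3 was the lowest, and they rest on 30 and 26 reads in DAPT replicates 1 and 2 and on 20, 16 and 12 reads in vehicle replicates 1 to 3. The log2 change was 0.79 (SE 0.253, 95% interval 0.26 to 1.31, limma adjusted p = 0.0314). The call was lost without vehicle replicate 3 (log2 change 0.53, adjusted p = 0.158), without DAPT replicate 1 (adjusted p = 0.0934), 2 (0.0837) or 3 (0.085), and in edgeR on 5 libraries (0.0696).

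Itga4, best known from leukocytes, stood at 59.7, 60.0 and 66.4 in DAPT replicates 1 to 3, against 61.1, 45.6 and 59.3 in vehicle replicates 1 to 3 (ENSMUSG00000027009, chromosome 2). The groups overlapped, and the log2 change was 0.17 (95% interval -0.15 to 0.49, limma adjusted p = 0.506). In GENCODE M21 it overlaps Cerkl, a gene of the opposite strand at 56.8 ± 2.71 under DAPT and 49.2 ± 3.41 in vehicle; the use of strand in counting is not given in the sources used here, so reads of the overlap cannot be told apart.

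**Figure D3:**
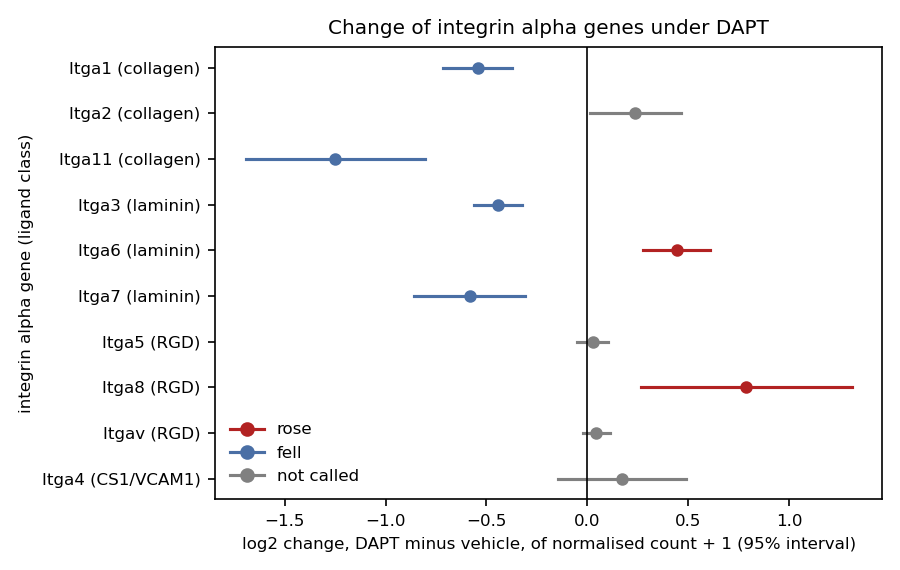
Log2 change, DAPT minus vehicle, of each integrin alpha gene with its 95% interval from limma, on log2(normalised count + 1). Colours mark genes that rose, fell or did not pass an adjusted p of 0.05; Itga11 at -1.25 and Itga8 at 0.79 have the widest intervals and the fewest reads.

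Per kilobase, the order of the levels over all libraries was Itga5, Itgav, Itga3, Itga1, Itga2, Itga7, Itga6, Itga11, Itga4 and Itga8. Itga5 stood at 353 ± 3.75 normalised counts per kilobase under DAPT and 346 ± 4.79 in vehicle, Itgav at 264 ± 1.37 under DAPT and 256 ± 1.83 in vehicle, and Itga8 at 2.98 ± 0.0582 under DAPT and 1.74 ± 0.519 in vehicle. By the deposited lengths Itga1 and Itga2 overlapped under DAPT, at 29.3 ± 0.967 and 29.3 ± 2.43, and so did Itga4 and Itga8. Itga2 and Itga7 overlapped by these lengths in vehicle, at 24.8 ± 1.29 and 23.3 ± 2.19. With GENCODE lengths Itga1 stood at 12.6 under DAPT and 18.5 in vehicle, and Itga2 at 17.3 under DAPT and 14.7 in vehicle. With the deposited lengths Itga6 ranked above Itga7 under DAPT and below it in vehicle. The deposited lengths differ from the summed exons of GENCODE M21 by factors of 0.43 for Itga1 to 1.58 for Itga4, and with the GENCODE lengths Itgav came above Itga5, Itga1 took rank 6, and Itga6 came above Itga7 in both groups, with Itga6 at 27.5 per kilobase under DAPT and 20.2 in vehicle and Itga7 at 8.15 under DAPT and 12.3 in vehicle.

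The RGD receptor genes held 79.8% ± 0.26 of the summed per-kilobase level of the 10 genes under DAPT and 75.6% ± 0.785 in vehicle. The laminin receptor genes held 11.6% ± 0.490 under DAPT and 14.1% ± 0.200 in vehicle, and the collagen receptor genes 8.17% ± 0.276 under DAPT and 9.91% ± 0.972 in vehicle. The sum over the 10 genes was 776 ± 5.56 normalised counts per kilobase under DAPT and 798 ± 16.8 in vehicle. The summed level of the RGD genes was 620 ± 2.43 per kilobase under DAPT and 604 ± 6.75 in vehicle, without a call for Itga5 or Itgav. With GENCODE lengths the RGD share was 80.8% under DAPT and 77.0% in vehicle, and the laminin share 14.2% under DAPT and 17.0% in vehicle. The collagen share, which the change of lengths moved most, was then 4.42% under DAPT and 5.55% in vehicle.

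The authors' deposited table gives 5 of the 10 genes an adjusted p below 0.05, namely Itga1, Itga3, Itga6, Itga7 and Itga11, where 9.53% of the genes tested here did. In the authors' deposited table Itga11 had a log2 ratio of -1.26 with an adjusted p of 0.00085, and Itga8 had a log2 ratio of 0.78 with an adjusted p of 0.190.

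The beta chain shared by all 10 receptors, Itgb1, stood at 13395 ± 231 under DAPT and 13085 ± 243 in vehicle and did not pass (log2 change 0.03, limma adjusted p = 0.523); with quantile normalisation it was called higher (adjusted p = 0.0315). Itgb1 per kilobase stood at 2361 ± 40.8 under DAPT and 2306 ± 42.9 in vehicle, above the sum of the 10 alpha genes in each library. Of the beta chains that, among these 10 alpha subunits, pair with alphaV alone, Itgb5 fell, at 1680 ± 73.4 under DAPT and 2038 ± 56.9 in vehicle (log2 change -0.28, limma adjusted p = 1.29e-05). The scarce Itgb8 fell too, at 59.3 ± 2.95 under DAPT and 85.3 ± 9.45 in vehicle. The call of Itgb8 was lost without vehicle replicate 1 (limma adjusted p = 0.0563) and in DESeq2 (adjusted p = 0.218). Itgb3 did not pass, at 767 ± 30.6 under DAPT and 706 ± 27.0 in vehicle. Itgb2, the leukocyte chain, rose, at 102 ± 9.35 under DAPT and 58.5 ± 8.86 in vehicle, making 1 riser and 2 fallers among 7 tested beta genes. Of all tested genes 18.1% were called.

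Of 8 other alpha genes 3 were tested and 0 were called at an adjusted p of 0.05 in limma, edgeR or DESeq2, and 0 had an unadjusted limma p below 0.05. Itga9, the tenascin and osteopontin receptor chain, stood at 11.8 ± 2.96 under DAPT and 17.7 ± 3.08 in vehicle (limma adjusted p = 0.203). Itga10, the cartilage collagen receptor chain, stood at 24.8 ± 3.23 under DAPT and 21.5 ± 4.75 in vehicle (adjusted p = 0.613). Itga2b, the platelet chain, stood at 171 ± 16.7 under DAPT and 188 ± 6.44 in vehicle (adjusted p = 0.312), while the platelet genes Gp9, Pf4 and Ppbp had 0 reads in all 6 libraries. The leukocyte genes Itgad, Itgae, Itgal, Itgam and Itgax lay under the filter.

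The genes of the ligands mostly fell, including those of receptors that did not. Of 10 collagen ligand genes 9 fell and 0 rose, with a median log2 change of -0.57. Among all tested genes 8.91% were called lower, and 47.2% of those with a mean over 5000 were called in either direction. Col3a1, of fibrillar collagen, stood at 14723 ± 194 under DAPT and 24247 ± 2369 in vehicle, and Col4a2, of basement membrane collagen, at 2320 ± 95.7 under DAPT and 3728 ± 143 in vehicle. The smallest called falls were those of Col1a2, with a log2 change of -0.49, and Col5a1, at -0.40. Many matrix genes were already known to be lower in these libraries when the lists were drawn up, so these counts are not independent evidence of direction.

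Of 11 laminin chain genes 9 were tested, 5 fell and 0 rose, with a median log2 change of -0.20. By comparison 8.91% of all tested genes were called lower. The share called in either direction was 32.8% at means from 1000 to 5000 normalised counts and 47.2% above 5000. Lama5, the alpha chain of the laminin that alpha3 and alpha6 receptors bind best, stood at 2104 ± 122 under DAPT and 3309 ± 219 in vehicle. Lamc1, the gamma chain of most laminins, stood at 5600 ± 47.6 under DAPT and 7039 ± 450 in vehicle, and Lamb1 and Lamb2 had log2 changes of -0.25 and -0.16. Lama4, the alpha chain of vascular basement membranes, did not pass, at 1903 ± 81.9 under DAPT and 1895 ± 101 in vehicle. Without an intensity trend in the test, 3 laminin genes fell.

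Of 11 RGD ligand genes 9 were tested, 7 fell and 0 rose, with a median log2 change of -0.44. Again 8.91% of all tested genes were called lower. In either direction 32.8% were called at means from 1000 to 5000 normalised counts and 47.2% above 5000. Tnc, tenascin-C, stood at 1273 ± 103 under DAPT and 2844 ± 225 in vehicle (log2 change -1.16, limma adjusted p = 6.27e-14), and Tgfb3, whose latent form alphaV receptors bind, at 440 ± 13.6 under DAPT and 640 ± 10.8 in vehicle. Fn1, fibronectin, the main ligand of alpha5, stood at 33460 ± 90.2 under DAPT and 46236 ± 5807 in vehicle (log2 change -0.46, limma adjusted p = 4.77e-07). Npnt, nephronectin, the preferred ligand of alpha8, fell, at 276 ± 9.53 under DAPT and 331 ± 29.9 in vehicle, opposite in direction to Itga8; its call was lost without DAPT replicate 2 (adjusted p = 0.0702) and without vehicle replicate 3 (0.0904). Mfge8, at 2150 ± 86.6 under DAPT and 2351 ± 65.6 in vehicle, lost its call without DAPT replicate 2 (0.0817) or 3 (0.129) and without vehicle replicate 2 (0.0831). Without an intensity trend in limma the calls of Npnt (adjusted p = 0.0944) and Mfge8 (0.164) were also lost. DESeq2 lost both as well (Npnt 0.146, Mfge8 0.379), and edgeR lost Mfge8 (0.126).

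Fibronectin, counted above among the RGD ligands, also binds alpha4. Both other tested ligands of alpha4 were called lower, the matrix protein Emilin1 with a log2 change of -0.21 and Vcam1 with -0.10. Among all tested genes 8.91% were called lower. The call of Vcam1 was lost without DAPT replicate 1 (limma adjusted p = 0.119) or 2 (0.183) and without vehicle replicate 2 (0.0634) or 3 (0.0959). Without a filter on low values (limma adjusted p = 0.0572) or an intensity trend (0.204) this call was also lost. Quantile normalisation (0.0989) and DESeq2 (0.0778) lost it as well.

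**Figure D4:**
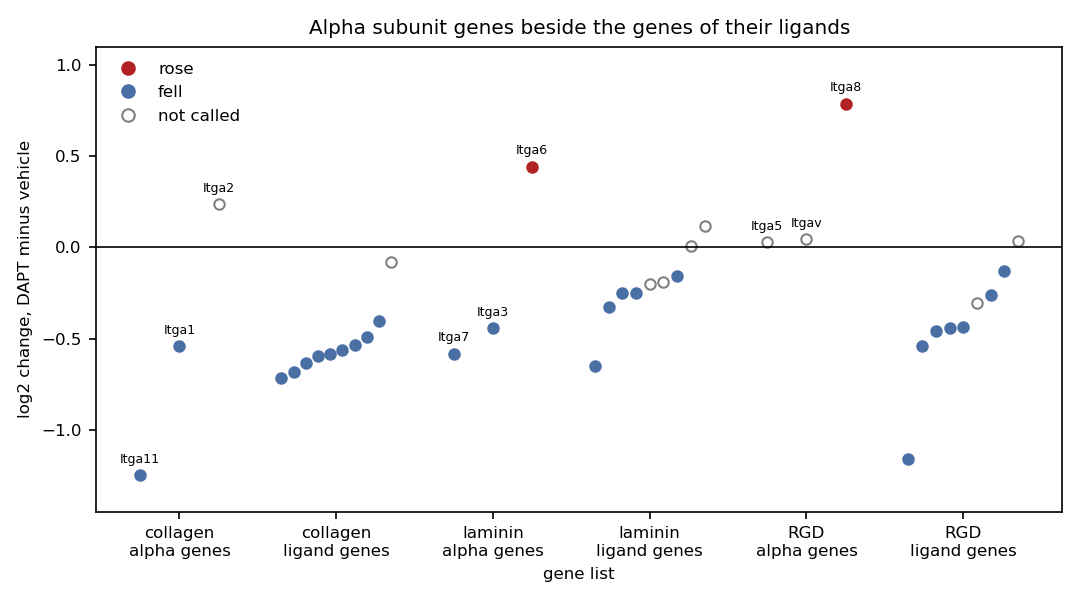
Log2 change, DAPT minus vehicle, of the tested alpha genes of 3 ligand classes, named, and beside each class the tested genes of its ligands, sorted by change; filled points passed an adjusted p of 0.05. Ligand genes fell in all 3 classes (9, 5 and 7 genes), while Itga6 and Itga8 rose and Itga5 and Itgav did not pass. The Itga8 call held in 8 of 15 alternative tests.

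Receptors for collagen and laminin outside the integrin family moved both ways, with 2 of 6 higher and 2 lower. Among all tested genes 9.22% were called higher and 8.91% lower. At means from 1000 to 5000 normalised counts 32.8% were called in either direction. Ddr2, the discoidin domain receptor of fibroblasts for fibrillar collagen, rose, at 5373 ± 157 under DAPT and 4570 ± 197 in vehicle, while Ddr1, its epithelial relative, fell, at 2302 ± 58.6 under DAPT and 3080 ± 65.1 in vehicle. The syndecan Sdc1 rose, with a log2 change of 0.13, a call lost without an intensity trend (limma adjusted p = 0.105) and in DESeq2 (0.106). Bcam, a laminin alpha5 receptor, had a log2 change of -0.18. Its call was lost without DAPT replicate 3 (limma adjusted p = 0.227) and without vehicle replicate 1 (0.0909) or 3 (0.0703). Without an intensity trend (0.154), in edgeR (0.210) and in DESeq2 (0.606) the Bcam call was lost too. Of 6 membrane partners of integrins 2 rose, Cd63 and the integrin-associated protein Cd47, and 2 fell, the caveola protein Cav1 and Cd151, a tetraspanin that binds the laminin receptors, at 2223 ± 40.6 under DAPT and 2518 ± 23.2 in vehicle. Without an intensity trend in limma the calls of Cd63 (adjusted p = 0.0918), Cd47 (0.115) and Cav1 (0.0584) were lost, and Cd47 also in DESeq2 (0.124).

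Inside the cell, 30 genes of integrin adaptors and focal adhesions were listed, of which 28 were tested, 1 rose and 9 fell, with a median log2 change of -0.09. Of all tested genes 18.1% were called. The share was 32.8% at means from 1000 to 5000 normalised counts and 47.2% above 5000. Zyx, zyxin, a protein of mature adhesions, fell most, at 4656 ± 173 under DAPT and 7181 ± 309 in vehicle (log2 change -0.62, limma adjusted p = 5.61e-12). Vcl, vinculin, stood at 3129 ± 166 under DAPT and 3687 ± 99 in vehicle, and Tes, which binds zyxin, rose, at 251 ± 3.54 under DAPT and 196 ± 26.8 in vehicle. The Tes call was lost without an intensity trend (limma adjusted p = 0.0848) and in DESeq2 (adjusted p = 0.120). Tln2 fell, with a log2 change of -0.26, a call lost without DAPT replicate 3 (adjusted p = 0.0524). Tns1 had a log2 change of -0.10 and lost its call without DAPT replicate 2 (0.119) or 3 (0.242) and without vehicle replicate 1 (0.129) or 2 (0.0712). In DESeq2 the calls of Tln2 (adjusted p = 0.266) and Tns1 (0.489) were lost. Without an intensity trend in limma they were also lost (Tln2 0.0867, Tns1 0.218). Tns1 was lost as well with quantile normalisation (0.144), without a filter on low values (0.0749) and in edgeR (0.233). The count that fell was 5 without DAPT replicate 3, 6 without DAPT replicate 2, 5 in DESeq2, 6 in edgeR and 2 without an intensity trend.

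Markers of other cells moved with some of these genes, where 8.91% of all tested genes were called lower and 9.22% higher. Of 8 mesothelial markers 6 were tested, 5 fell and 0 rose, and their summed level was 1921 to 2064 normalised counts in DAPT libraries and 3475 to 3553 in vehicle libraries; none was at 0 throughout, and Krt8 averaged 0.660 under DAPT and 0 in vehicle. Lrrn4 fell most of them, at 240 ± 4.02 under DAPT and 675 ± 88.4 in vehicle. Upk3b, Upk1b and Wt1 had log2 changes of -1.01, -0.52 and -0.43, and the Wt1 call was lost in DESeq2 (adjusted p = 0.0809). All 10 adventitial fibroblast markers were tested, 7 fell and 1, Ly6a, rose, with a summed level of 32005 to 33454 in DAPT libraries and 31819 to 34597 in vehicle libraries. Lum, a collagen-binding proteoglycan, stood at 51.3 ± 4.47 under DAPT and 96.8 ± 28.9 in vehicle, and Mfap5 and Dcn had log2 changes of -0.64 and -0.14. The Dcn call was lost without DAPT replicate 1 (limma adjusted p = 0.123), with quantile normalisation (0.0647) and in DESeq2 (0.0836). Without an intensity trend in limma 2 adventitial markers fell and 0 rose. The calls lost there included those of Dcn (adjusted p = 0.203), Lum (0.0678) and Ly6a (0.0628). The contractile genes summed to 15341 to 15792 in DAPT libraries and 17111 to 18027 in vehicle libraries, and Acta2, smooth muscle actin, stood at 252 ± 26.3 under DAPT and 520 ± 50.8 in vehicle. Tagln, which binds actin, and the tropomyosins Tpm2 and Tpm1 had log2 changes of -0.90, -0.30 and -0.23. In bulk RNA fewer cells of a type and less RNA per cell cannot be told apart, and the part of these markers in the changes of the alpha genes was not tested.

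Of the pericyte markers Pdgfrb fell and Cspg4 rose, and Kcnj8 was at 0. The Cspg4 call was lost without an intensity trend in limma (adjusted p = 0.0769). Of 3 tested endothelial markers 0 were called in limma, edgeR or DESeq2, and 0 had an unadjusted limma p below 0.05; Kdr stood at 529 ± 14.2 under DAPT and 541 ± 18.1 in vehicle, while Cdh5 stood at 1.69 ± 1.53 under DAPT and 1.72 ± 0.771 in vehicle. Tek stood at 48.1 ± 2.20 under DAPT and 41.4 ± 14.0 in vehicle. Of 3 tested leukocyte markers Cd68 was called higher, and Cd3e was at 0 in all libraries. The Cd68 call was lost without DAPT replicate 2 (limma adjusted p = 0.0578), without vehicle replicate 1 (0.0671) and in DESeq2 (0.259). Of 3 tested Schwann cell markers 0 were called in limma, edgeR or DESeq2 and 0 had an unadjusted limma p below 0.05, the most abundant being Ngfr at 19.8 ± 3.61 under DAPT and 17.6 ± 0.65 in vehicle and S100b at 14.6 ± 1.27 under DAPT and 15.0 ± 1.77 in vehicle. Likewise Gp1ba, a platelet gene, stood at 25.5 ± 2.57 under DAPT and 26.8 ± 6.47 in vehicle.

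The genes most like Itga11 and Itga8 over the 6 libraries were looked for among 11092 others with a mean of at least 100. For Itga11 they were Fam115c (Pearson r = 0.998), the predicted gene Gm10052 (0.997) and Fam131b (0.995), all called lower, with log2 changes of -0.29, -0.28 and -0.57. For Itga8 they were Rfx7 (0.996), Pdcd4 (0.991) and Camkk2 (0.986), none of which passed the test, with log2 changes of 0.11, 0.07 and 0.17. With 6 libraries in 2 groups such values are common: 175 genes had an r above 0.95 with Itga11 and 74 with Itga8.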

How the data were processed

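RNA libraries were made with a TruSeq kit from column-purified RNA, per the labels' protocols. The submitters' processing notes name, without roles, the mm9 build and the tools DESeq 1.16.0, HTSeq 0.5.4p3 and TopHat2 2.0.4. The authors deposited per library a signal that equals reads divided by 1 size factor; 100% of values were whole multiples of 1 read, within 0.01 reads. Columns C and I were read as control and inhibitor, a reading the labels do not spell out. Whole reads were used for count tests in 5 libraries, since the size factor of DAPT replicate 3 lies too near 1 for a rule on recovered reads. The authors also deposited RPKM as 1 value per group, a log2 ratio, a p-value and an adjusted p-value per gene, and a length, which was used for levels per kilobase.

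The test was limma 3.58.1 with an intensity trend (R 4.3.3) on log2(normalised count + 1), in genes with at least 10 in at least 3 libraries, DAPT minus vehicle, two-sided, threshold 0.05, with no covariate; fold changes are on that scale. It was tested on simulated data. edgeR 4.0.16 and DESeq2 1.42.0 were alternatives. All members were named, and of each list up to 4 called genes from its ends, or the 2 most abundant. Fn1, Lama4, Myh11, Nrarp, Vcl and genes at or near 0 were added after their values were seen. The members and lists were chosen with earlier results of these data known.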

Additional observations from a re-analysis of the deposited data

How the results depend on the processing

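Of 17 alternatives run, 982 to 2752 genes passed the threshold, against 2703; the count was 996 without an intensity trend (431 higher, 565 lower) and 982 in DESeq2 on 5 libraries (445 higher, 537 lower), and 1864 to 2713 with 1 library left out. Among the 10 alpha genes 4 to 6 passed under each alternative, 5 or 6 with 1 library left out. Itga1, Itga3 and Itga6 passed in all 17 and Itga11 in the 16 that tested it. Itga7 was lost in DESeq2 only, and Itga8 passed in 8 of 15, also failing without a filter (adjusted p = 0.0708) and without a trend (0.0919). No alpha gene changed sign. Without a trend, 4 RGD ligand genes and 2 adventitial markers fell, against 7 each. The filter of 50 leaves out Itga8 and Itga11 by its construction. Ranks per kilobase with GENCODE lengths, an alternative chosen after seeing the data, were 6 for Itga1, 4 for Itga6, 7 for Itga7, 2 for Itga5 and 1 for Itgav; no rank by the mean over both groups moved with 1 library left out.

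S100b and Gp1ba, both uncalled, reversed: S100b was at 5.89e-16 with quantile normalisation and at -0.116 to 0.0433 with 1 library left out, and Gp1ba at -0.247 to 0.0969 with 1 library left out (log2). Deviations of same-numbered libraries from their group means had correlations of 0.0267, -0.0175 and 0.00990. With 3 libraries per group these cannot decide whether the numbers mark a pairing. The replicate block gave 2732 genes and 6 alpha genes. The planned RPKM alternative was not run, since RPKM is given per group. Depth limits Itga8 and Itga11, whose libraries hold 12 to 75 reads.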
